A study of Saccharomyces cerevisiae with 12 samples.

Results

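The genes described here make, recycle and use glutathione in *Saccharomyces cerevisiae*. They are the synthesis and reduction genes *GSH1*, *GSH2* and *GLR1*, the peroxidase genes *GPX1* and *GPX2*, and the transferase genes *GTT1*, *GTT2*, *ECM4* (also called *GTO2*) and *GTO3*. These 9 genes were chosen by name for their place in the pathway, with earlier results of these data known. Each was measured by 1 probe set, a group of short array probes that bind 1 transcript. In all, 5716 probe sets were paired with a yeast gene. Their RNA was measured on Yeast Genome 2.0 microarrays (Affymetrix), with 3 biological replicates in each of 4 groups, all grown aerobically at 28 °C in medium with 3% ethanol for 48 h. EG103 is the wild-type strain, a MATα, GAL+ haploid with the alleles *leu2-3 112*, *his3Δ1*, *trp1-289a* and *ura3-52*. EG110 was made from EG103 by replacing *SOD2*, the gene of the mitochondrial manganese superoxide dismutase, with the *TRP1* marker. Each strain was grown without aspirin (acetylsalicylic acid) or with 15 mM of it. The aspirin medium was brought to a set pH with Trizma base, and the labels mention no such step for the untreated medium, so aspirin and this adjustment cannot be told apart.

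Glutathione is a small thiol made from glutamate, cysteine and glycine. Gsh1 joins the first pair of amino acids in the step that limits the rate, Gsh2 adds glycine, and Glr1 returns oxidized glutathione to its reduced form with NADPH. Peroxidases reduce hydrogen peroxide and lipid peroxides, and transferases join glutathione to other molecules or remove it from them. Yeast has a pair of canonical transferases, Gtt1 and Gtt2, and an omega-like family that includes Ecm4 and Gto3. In respiring cells much of the superoxide arises in mitochondria, where manganese superoxide dismutase turns it into hydrogen peroxide.

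Values are log2 expression by the robust multi-array average, as the authors deposited them. *SOD2* lay between 4.50 and 4.99 on the EG110 arrays and between 14.19 and 14.40 on the EG103 arrays, so the strain labels held on every array. The genes that mark α cells, *MF(ALPHA)1*, *MF(ALPHA)2* and *STE3*, had group means from 9.21 to 14.15. The a-cell genes *STE2*, *MFA1* and *MFA2* had group means from 7.29 to 9.56, which overlap that range and also lie above the level of probe sets without a yeast gene. The array medians were 11.15 to 11.18 in EG110 and 11.36 to 11.39 in EG103. A difference between the strains therefore includes a shift of all genes, with a median of -0.20 without aspirin and -0.19 with it, and the differences of the 9 genes are also given below relative to that median or after rescaling. The 9 probe sets lay between 8.14 and 13.71 on every array, above the 95th percentile of probe sets without an *S. cerevisiae* gene (5.26 to 5.50). The standard deviation (SD) between replicates of these genes was 0.0024 to 0.24 log2 units. RNA came from whole cultures, so fewer cells expressing a gene and less of its RNA per cell cannot be told apart.

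With aspirin, 1 of the 9 genes was called in each strain, and it was a different transferase gene in each. *GTT1* fell 1.75-fold in EG110 and *GTO3* fell 2.65-fold in EG103. A gene was called at an adjusted P below 0.05, from a limma model of every tested probe set with Benjamini-Hochberg correction, and a fold change of at least 1.5. The share of all tested probe sets called was 12% in EG110 and 2.61% in EG103, and for calls of lower expression alone it was 6.09% and 0.857% (higher expression, 5.90% and 1.75%). In EG110, 1 gene in 9 is near this background, and in EG103 it is above it, on a single gene. At an adjusted P below 0.05 alone, 3 genes passed in EG110 (background 52.3%) and 2 in EG103 (background 20.6%). The median log2 fold change of the 9 genes was -0.06 in each strain, beside 0.02 and 0.01 over all tested probe sets. Between the untreated strains, 5 of the 9 genes were called, *GPX1*, *GTT1*, *GTT2* and *ECM4* higher in EG110 and *GTO3* lower, with a background of 24.8% (7.45% higher and 17.4% lower). At an adjusted P below 0.05 alone 8 passed, beside 72.6% of all probe sets. With aspirin in both strains, 3 were called, all higher in EG110, with a background of 25.1% (7.03% higher and 18.1% lower), and 8 passed an adjusted P of 0.05 alone (72.6%).

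**Figure D1:**
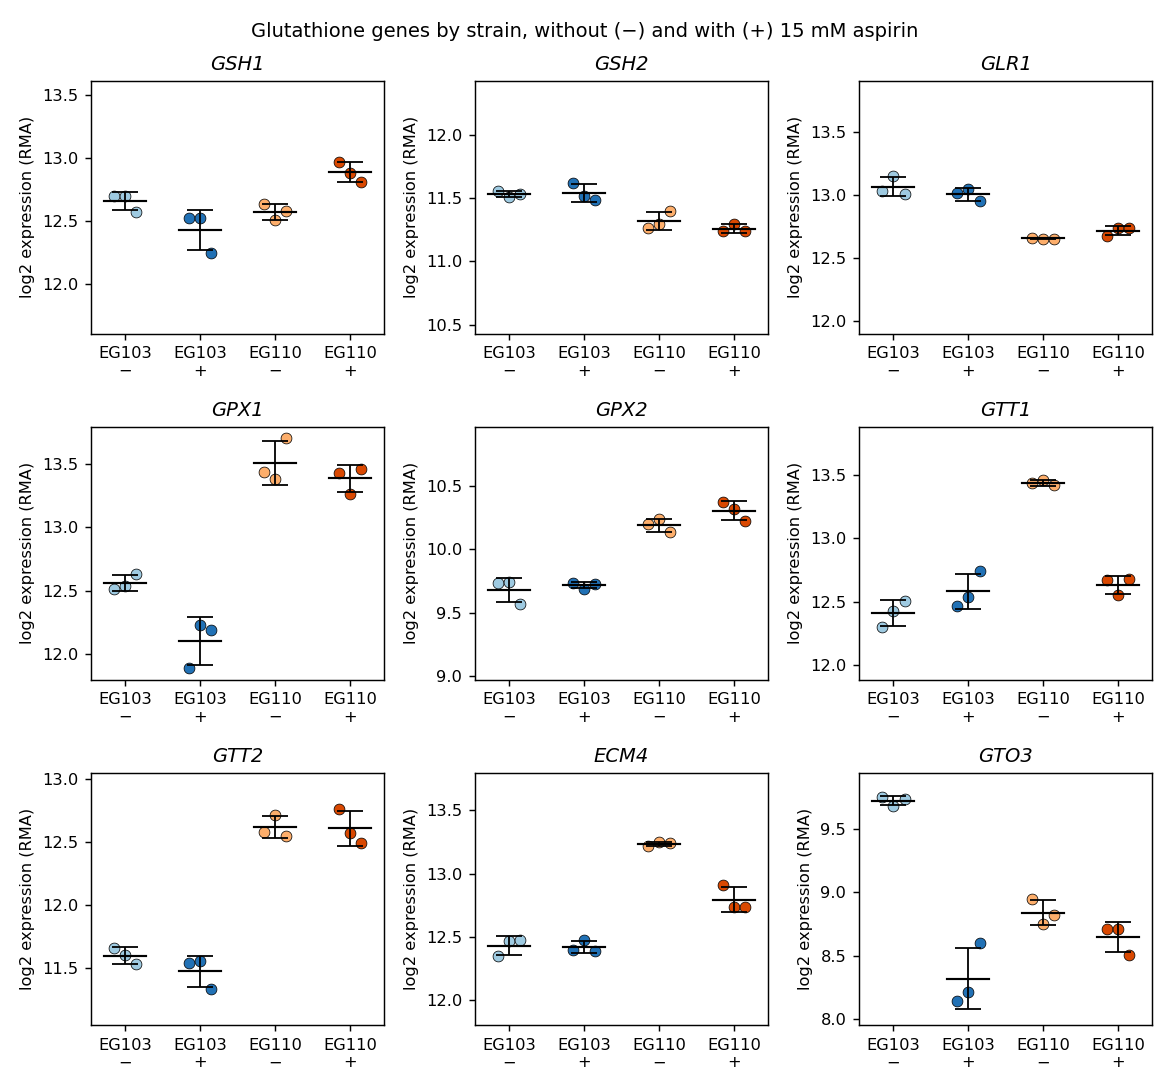
Log2 expression of the 9 glutathione genes, 1 panel per gene with an axis spanning 2 log2 units, in EG103 and EG110 cells without (−) and with (+) 15 mM aspirin. Points are arrays, the long line is the mean and the error bars are the SD (n = 3). *GTT1* and *ECM4* stand highest in untreated EG110 cells, and *GTO3* stands highest in untreated EG103 cells.

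*GSH1* (YJL101C), the gene of glutamate-cysteine ligase, had an aspirin effect of opposite sign in the strains. Its log2 expression was 12.64, 12.51 and 12.58 on the untreated EG110 arrays and 12.97, 12.88 and 12.81 with aspirin. In EG103 cells it was 12.70, 12.70 and 12.57 without aspirin and 12.52, 12.52 and 12.25 with it. The aspirin-treated arrays lay above all untreated ones in EG110 and below all of them in EG103. The log2 fold change was 0.31 in EG110 (standard error, SE, 0.078, limma's adjusted P = 0.00500), which is 1.24-fold and under the fold threshold. It was -0.23 in EG103 (SE 0.078, limma's adjusted P = 0.0583). The EG103 value was -0.14 (limma's adjusted P = 0.143) without aspirin-treated replicate 3, and its adjusted P was 0.0448 with a variance trend and 0.0162 with replicate number as a block. The aspirin effect in EG110 minus that in EG103, tested as an interaction, was 0.54 (95% confidence interval 0.30 to 0.78, limma's adjusted P = 0.00303). At 1.46-fold it did not reach the fold threshold, which it passed, at 0.59 each time, after quantile normalization and without aspirin-treated EG103 replicate 1, aspirin-treated EG103 replicate 2 or untreated EG103 replicate 3.

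*GSH2* (YOL049W), which encodes glutathione synthetase, stayed within a narrow range. Its lowest and highest values were 11.26 and 11.40 in untreated EG110 cells, 11.24 and 11.30 with aspirin, 11.51 and 11.56 in untreated EG103 cells, and 11.49 and 11.62 with aspirin. Treated and untreated arrays overlapped in each strain. The aspirin effect was -0.06 in EG110 (95% confidence interval -0.17 to 0.05, limma's adjusted P = 0.364) and 0.01 in EG103 (-0.11 to 0.12, adjusted P = 0.947). These intervals hold no change of 1.5-fold.

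*GLR1* (YPL091W), the gene of glutathione reductase, was at 12.66, 12.65 and 12.65 in untreated EG110 cells and at 12.68, 12.74 and 12.74 with aspirin. In EG103 cells it was at 13.03, 13.15 and 13.01 without aspirin and at 13.01, 13.05 and 12.95 with it. The aspirin effects were 0.06 in EG110 (95% confidence interval -0.05 to 0.17, limma's adjusted P = 0.330) and -0.06 in EG103 (-0.17 to 0.05, adjusted P = 0.442). All 6 EG110 arrays lay below all EG103 arrays. Without aspirin the difference was -0.41 (limma's adjusted P = 1.45e-05, 1.33-fold), and relative to the median of all tested probe sets it was -0.21. With aspirin it was -0.29 (limma's adjusted P = 0.000238), or -0.10 relative to the median. With every array's median set to 0 the treated arrays of the strains overlapped and the difference was -0.09 (limma's adjusted P = 0.130).

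The synthesis and reduction genes thus gave 0 calls in each aspirin comparison by limma, while *GSH1* passed an unadjusted P of 0.05 in both strains. The methods' t-test, unpaired and two-tailed, gave *GSH1* an adjusted P of 0.0201 in EG110 and 0.229 in EG103. The study's methods name this test for pairwise comparisons, and moderated t-statistics for the microarrays. Between the strains, the signs for *GSH1* and *GSH2* without aspirin depended on the scaling. As deposited the differences were -0.08 and -0.22, and with every array's median set to 0 they were 0.14 and 0.01. With aspirin, *GSH2* had -0.28 as deposited (limma's adjusted P = 0.000394) and -0.08 after this centring (limma's adjusted P = 0.184). With aspirin, *GSH1* was 0.46 higher in EG110 (limma's adjusted P = 0.000209), and this difference passed the fold threshold after quantile normalization (0.67) and after median centring (0.66).

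*GPX1* (YKL026C), which encodes a phospholipid hydroperoxide peroxidase, separated the strains whatever the medium. Its log2 expression was 13.44, 13.39 and 13.71 in untreated EG110 cells and 13.43, 13.27 and 13.47 with aspirin, against 12.51, 12.54 and 12.64 in untreated EG103 cells and 11.89, 12.23 and 12.19 with aspirin. All 6 EG110 arrays lay above all 6 EG103 arrays. Without aspirin EG110 exceeded EG103 by 0.95 (SE 0.10, limma's adjusted P = 5.03e-06, 1.93-fold), and with aspirin by 1.29 (SE 0.10, adjusted P = 3.86e-07, 2.44-fold). Relative to the median of all probe sets the differences were 1.15 and 1.47.

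With aspirin, the *GPX1* values of EG103 cells lay below every untreated array on all 3 arrays. The log2 fold change was -0.46 (SE 0.10, limma's adjusted P = 0.0103, 1.38-fold), under the fold threshold, and the methods' t-test gave an adjusted P of 0.109. In EG110 cells the effect was -0.12 (95% confidence interval -0.35 to 0.10, limma's adjusted P = 0.342) and the groups overlapped. The difference between these effects was 0.34 (0.02 to 0.65) and did not pass adjustment (limma's adjusted P = 0.0955). It passed with replicate number as a block (limma's adjusted P = 0.0304) and without untreated EG110 replicate 3 (0.44, adjusted P = 0.0216).

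*GPX2* (YBR244W) encodes a second peroxidase of this family. Its arrays ran from 10.13 to 10.24 in untreated EG110 cells, from 10.23 to 10.37 with aspirin, from 9.57 to 9.74 in untreated EG103 cells and from 9.69 to 9.74 with aspirin. Treated and untreated arrays overlapped in both strains, with effects of 0.12 in EG110 (limma's adjusted P = 0.121) and 0.04 in EG103 (adjusted P = 0.693). All EG110 arrays lay above all EG103 arrays, by 0.51 without aspirin (limma's adjusted P = 9.15e-06, 1.43-fold) and by 0.59 with it (adjusted P = 2.68e-06, 1.51-fold). Only the latter was called, and it lost the call, at 0.56, 0.58 and 0.58, when aspirin-treated EG110 replicate 1, aspirin-treated EG110 replicate 2 or aspirin-treated EG103 replicate 2 was left out. Relative to the median of all probe sets the differences were 0.71 and 0.78.

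*GTT1* (YIR038C), which encodes a transferase associated with the endoplasmic reticulum, was highest in untreated EG110 cells. There its log2 expression was 13.44, 13.46 and 13.42, and with aspirin it was 12.67, 12.55 and 12.68. In EG103 cells it was 12.30, 12.43 and 12.50 without aspirin and 12.47, 12.53 and 12.74 with aspirin. The untreated EG110 arrays stood apart from all 9 other arrays, while the aspirin-treated EG110 arrays lay among those of EG103. Its mean in EG110 fell from 13.44 ± 0.02 to 12.63 ± 0.07 (each SD, n = 3), with a log2 fold change of -0.81 (SE 0.074, limma's adjusted P = 4.41e-06). In EG103 the log2 fold change was 0.17 (95% confidence interval 0.01 to 0.33, limma's adjusted P = 0.124, or 0.0448 with replicate number as a block). The interaction was -0.98 (SE 0.11, limma's adjusted P = 4.09e-05, 1.97-fold), past both thresholds, beside a background of 11.6% of probe sets called in the interaction (6.37% lower).

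Without aspirin, *GTT1* was 1.03 higher in EG110 than in EG103 (SE 0.074, limma's adjusted P = 2.10e-07, 2.04-fold). With aspirin in both strains the difference was 0.05 (95% confidence interval -0.11 to 0.21, limma's adjusted P = 0.545), and the arrays overlapped. With every array's median set to 0, the latter was 0.25 (limma's adjusted P = 0.00685) and the arrays did not overlap. Relative to the median of all probe sets the difference without aspirin was 1.23.

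*GTT2* (YLL060C), the other canonical transferase gene, differed between the strains to the same order but without a call for aspirin. Its values were 12.58, 12.71 and 12.55 in untreated EG110 cells and 12.76, 12.57 and 12.49 with aspirin. In EG103 cells they were 11.66, 11.61 and 11.53 without aspirin and 11.54, 11.55 and 11.33 with it. Every EG110 array exceeded every EG103 array, and treated and untreated arrays overlapped within each strain. EG110 was higher by 1.01 without aspirin (SE 0.082, limma's adjusted P = 5.00e-07, 2.02-fold) and by 1.13 with it (adjusted P = 1.78e-07, 2.19-fold), or by 1.21 and 1.32 relative to the median of all probe sets. The aspirin effects were -0.01 in EG110 (95% confidence interval -0.19 to 0.17) and -0.12 in EG103 (-0.30 to 0.05), so that neither interval holds a 1.5-fold change.

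*ECM4* (YKR076W), an omega-like transferase gene, had values of 13.22, 13.25 and 13.24 in untreated EG110 cells and of 12.91, 12.74 and 12.74 with aspirin. In EG103 cells they were 12.35, 12.47 and 12.48 without aspirin and 12.40, 12.47 and 12.39 with it. The untreated EG110 arrays were highest, the treated EG110 arrays came next without overlap, and the EG103 groups overlapped below them. The aspirin effect was -0.44 in EG110 (SE 0.058, limma's adjusted P = 6.97e-05, 1.36-fold), under the fold threshold, and -0.01 in EG103 (95% confidence interval -0.14 to 0.12, adjusted P = 0.917). The effects differed by -0.43 (limma's adjusted P = 0.00211, 1.35-fold). Without aspirin EG110 exceeded EG103 by 0.81 (limma's adjusted P = 2.13e-07, 1.75-fold). With aspirin it did so by 0.38 (adjusted P = 0.000102, 1.30-fold), which was called only after quantile normalization (0.59). Relative to the median of all probe sets these differences were 1.00 and 0.56.

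*GTO3* (YMR251W), a further omega-like transferase gene, ran against this pattern, with its highest values in untreated EG103 cells. They were 9.75, 9.69 and 9.74 there and 8.14, 8.21 and 8.60 with aspirin. In EG110 cells the values were 8.95, 8.75 and 8.82 without aspirin and 8.71, 8.71 and 8.51 with it. The untreated EG103 arrays stood above all 9 others. The mean in EG103 fell from 9.73 ± 0.03 to 8.32 ± 0.24 (each SD, n = 3), with a log2 fold change of -1.41 (SE 0.11, limma's adjusted P = 3.80e-05). This value lay at percentile 0.035 of the log2 fold changes of all tested probe sets in EG103. For this fall the methods' t-test gave an adjusted P of 0.0416. In EG110 the log2 fold change was -0.20 (95% confidence interval -0.43 to 0.03, limma's adjusted P = 0.135). The interaction was 1.21 (SE 0.15, limma's adjusted P = 0.000101, 2.32-fold), with a background of 5.21% of probe sets called in this direction.

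Without aspirin *GTO3* was 0.89 lower in EG110 than in EG103, as a log2 difference of -0.89 (SE 0.11, limma's adjusted P = 1.09e-05, 1.85-fold), or -0.69 relative to the median of all probe sets. With aspirin it was 0.33 higher in EG110 (limma's adjusted P = 0.0146, 1.25-fold), with overlapping arrays. Relative to the median of all probe sets it was 0.51, and with every array's median set to 0 it was 0.52 (limma's adjusted P = 0.000765) and the arrays did not overlap. As deposited, this adjusted P was 0.0520 to 0.0692 when aspirin-treated replicate 1 or 2 of either strain was left out, and 0.133 by the methods' t-test.

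**Figure D2:**
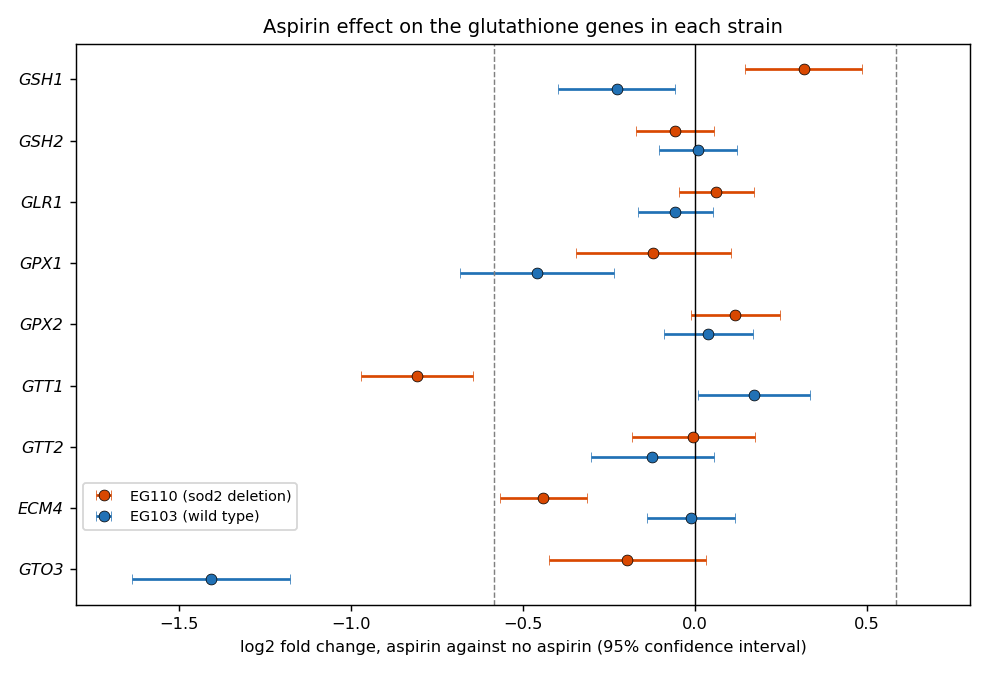
Log2 fold change with aspirin of the 9 genes in EG110 and EG103 cells, with limma's 95% confidence intervals over 12 arrays. Dashed lines mark a 1.5-fold change. *GTT1* in EG110 (-0.81) and *GTO3* in EG103 (-1.41) lie beyond the lines with their whole intervals, and *GSH1* lies on opposite sides of 0 in the strains (0.31 and -0.23).

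In the interaction, 2 of the 9 genes were called (background 11.6%), *GTT1* and *GTO3*, in opposite directions. At an adjusted P of 0.05 by limma alone, 4 passed (background 33.1%). The others were *GSH1* (0.54) and *ECM4* (-0.43). For *GTT1* and *ECM4* the aspirin effect was the more negative in EG110, and for *GSH1* and *GTO3* it was the more negative in EG103. For *GSH2*, *GLR1*, *GPX2* and *GTT2* the interaction lay between -0.07 and 0.12, with adjusted P-values of 0.224 to 0.536 by limma.

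Groups did not overlap in 5 of the 9 genes for aspirin in EG110 (background 62.0%), in 3 for aspirin in EG103 (39.0%), in 8 between the untreated strains (73.1%) and in 7 between the treated strains (79.3%). For a single gene with 3 arrays in each group, the smallest P of a two-sided exact permutation test is 0.1, and each gene without overlap had this value.

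**Figure D3:**
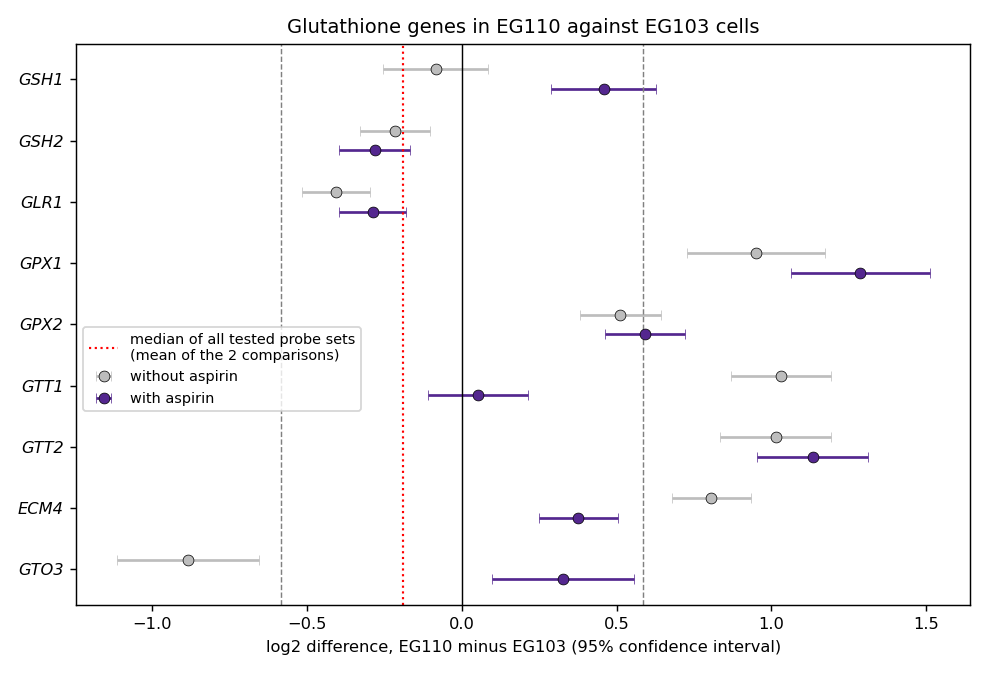
Log2 difference between EG110 and EG103 cells of the 9 genes, without and with aspirin, with limma's 95% confidence intervals over 12 arrays. Dashed lines mark a 1.5-fold difference and the dotted line marks the mean of the medians of all tested probe sets in both media. The peroxidase genes, *GTT2* and *ECM4* lie to the right in both media, and *GTT1* (1.03 and 0.05) and *GTO3* (-0.89 and 0.33) change place between the media.

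Both peroxidase genes and all transferase genes but *GTO3* were higher in untreated EG110 cells at an adjusted P below 0.05 by limma. The median difference of the 9 genes was 0.51 without aspirin and 0.38 with it, beside -0.20 and -0.19 over all tested probe sets. The balance of calls over the whole table depended on the scaling. As deposited, 426 probe sets were called higher and 993 lower in untreated EG110 cells, while quantile normalization gave 618 and 553 and median centring 754 and 465. With aspirin the counts were 402 and 1033 as deposited, 631 and 605 after quantile normalization, and 685 and 582 after centring. The 5 genes named above for the untreated strains were called in the same direction under both scalings, which added *GPX2* (0.64 and 0.73).

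The genes whose pattern over the 12 arrays was most like that of *GTT1*, after the mean of each strain was subtracted, were *AQY1* (Pearson's r = 0.989), *ECI1* (0.988) and *SPS100* (0.987). Their log2 fold changes with aspirin were -2.35, -0.95 and -1.47 in EG110 and 0.54, 0.08 and 0.25 in EG103. For *GTO3* they were *FIT3* (0.987), *FTH1* (0.978) and *SLX5* (0.966), with -0.07, -0.13 and 0.00 in EG110 and -0.80, -0.42 and -0.24 in EG103. These correlations describe 12 arrays that share groups, and the genes were the nearest of all tested.

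The wider pathway was described with 41 other genes on 40 probe sets, since *GEX1* and *GEX2* share 1. With aspirin in EG110, 3 of the 40 were called higher and 2 lower, and 23 passed an adjusted P of 0.05 by limma, shares close to the background. In EG103, 0 of the 40 were called, 2 passed an adjusted P of 0.05 and 6 an unadjusted P of 0.05 by limma, while the methods' t-test gave 0 and 7. Of all probe sets, 2.61% were called and 20.6% passed an adjusted P of 0.05 by limma. The 2 of 40 that passed this adjusted P are below its share. With 40 probe sets, 0 calls cannot be told apart from a share of 2.61%. For the other counts no background is given. The log2 fold changes of the 40 probe sets with aspirin lay between -0.64 and 1.17 in EG110 and between -0.23 and 0.23 in EG103. Between the untreated strains, 5 of the 40 were called higher in EG110 and 8 lower (background 7.45% and 17.4%). At an adjusted P of 0.05 by limma alone, 27 passed (72.6%). Between the treated strains, 6 were called higher in EG110 and 4 lower (background 7.03% and 18.1%), and 32 passed an adjusted P of 0.05 by limma (72.6%).

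Of the 3 further peroxidase and transferase-like genes, 2 were called higher in untreated EG110 than in EG103 cells, beside 7.45% of all probe sets. With aspirin in EG110, 1 of the 3 fell, *HYR1* (YIR037W), beside 6.09%. It encodes Gpx3, the peroxidase that senses peroxide for the transcription factor Yap1, and its gene neighbours *GTT1* in the reference annotation. Its mean went from 13.52 ± 0.03 to 12.91 ± 0.02 (each SD, n = 3), with a log2 fold change of -0.62 (limma's adjusted P = 1.34e-06, 1.53-fold), against 0.07 in EG103 (adjusted P = 0.351). After quantile normalization the EG110 value was -0.52, or 1.44-fold, under the fold threshold. As for *GTT1*, untreated EG110 cells exceeded untreated EG103 cells (0.64, limma's adjusted P = 2.99e-07), and with aspirin the difference was -0.05 (adjusted P = 0.410), or 0.14 relative to the median of all probe sets. The interaction was -0.68 (limma's adjusted P = 2.35e-05). *GTO1* (YGR154C), the peroxisomal omega-like transferase gene, was higher in untreated EG110 cells by 1.14 (limma's adjusted P = 3.90e-07). With aspirin it had a log2 fold change of -0.56 in EG110 (limma's adjusted P = 0.000261, 1.48-fold, under the fold threshold). This value passed the threshold after quantile normalization (-0.60, 1.51-fold). It also did so without aspirin-treated EG110 replicate 1 (-0.65) or untreated EG110 replicate 3 (-0.59). In EG103 the value was -0.12 (limma's adjusted P = 0.379), and the interaction was -0.45 (limma's adjusted P = 0.0175).

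The products of some glutaredoxin genes reduce disulfides with glutathione. Among all 8 of these genes, 1 rose with aspirin in EG110 and 0 were called lower, beside 5.90% and 6.09% of all probe sets. At an adjusted P of 0.05 alone 5 of the 8 passed by limma (background 52.3%), and besides *GRX8* these were *GRX4* with 0.28 and *GRX2*, *GRX6* and *GRX7* with -0.32, -0.33 and -0.27. *GRX8* (YLR364W) went from 10.43 ± 0.27 to 11.58 ± 0.15 (each SD, n = 3), with a log2 fold change of 1.16 (limma's adjusted P = 3.42e-05, 2.23-fold), and its effect in EG103 was 0.20 (adjusted P = 0.326). Between the untreated strains 0 of the 8 were called higher in EG110 and 2 lower, beside 7.45% and 17.4% of all probe sets. *GRX3* and *GRX6* were lower by log2 differences of -0.86 (limma's adjusted P = 4.14e-07) and -1.03 (adjusted P = 1.66e-07), or -0.66 and -0.83 relative to the median of all probe sets. Median centring also called *GRX2* higher (0.62, from 0.40 as deposited). Without untreated EG110 replicate 3, *GRX5* was called lower (-0.59, from -0.51).

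Of the 9 probe sets for glutathione breakdown and transport, 1 fell with aspirin in EG110, beside 6.09% of all probe sets. At an adjusted P of 0.05 alone 5 of the 9 passed by limma (background 52.3%), among them *OPT1* and *ECM38* with -0.42 and -0.24 and *DUG2* and *GCG1* with 0.40 and 0.22. The called probe set is the one shared by *GEX1* and *GEX2*, which encode exchangers of glutathione and protons, with a log2 fold change of -0.64 (limma's adjusted P = 1.37e-05, 1.56-fold) and of -0.05 in EG103 (adjusted P = 0.624). Which of the 2 genes it reports cannot be told apart. Between the untreated strains 2 of the 9 probe sets were called higher in EG110 and 2 lower, beside 7.45% and 17.4% of all probe sets. The probe set of *GEX1* and *GEX2* was 1.40 higher (limma's adjusted P = 1.21e-08). *OPT1*, the gene of a glutathione importer at the plasma membrane, was 1.83 higher (limma's adjusted P = 3.26e-07, 3.54-fold). *BPT1*, at 0.49 as deposited, was called higher after quantile normalization and after median centring (0.72 each). *DUG2*, which encodes a subunit of the cytosolic glutathione-degrading complex, was lower with -0.75 (limma's adjusted P = 1.79e-06), and after median centring it was at -0.53 and under the fold threshold. Its partner *DUG3* had -0.60 (limma's adjusted P = 0.00349), and its untreated EG110 arrays ran from 10.75 to 11.59. It was under the fold threshold after quantile normalization (-0.36, limma's adjusted P = 0.0528) and after median centring (-0.38, limma's adjusted P = 0.0450). The same held without untreated EG103 replicate 3 (-0.58). Without untreated EG110 replicate 3 the *DUG3* value was -0.37, under the fold threshold, and the methods' t-test gave an adjusted P of 0.104. For glutathione-dependent detoxification, median centring called *SFA1*, 1 of 5 genes, higher in untreated EG110 cells (0.64, limma's adjusted P = 4.81e-07, 1.56-fold). As deposited, none of the 5 was called in any comparison by limma. At an adjusted P of 0.05 alone, 3 passed for aspirin in EG110 (background 52.3%), 1 in EG103 (20.6%), 4 between the untreated strains (72.6%), 3 between the treated strains (72.6%) and 2 in the interaction (33.1%).

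**Figure D4:**
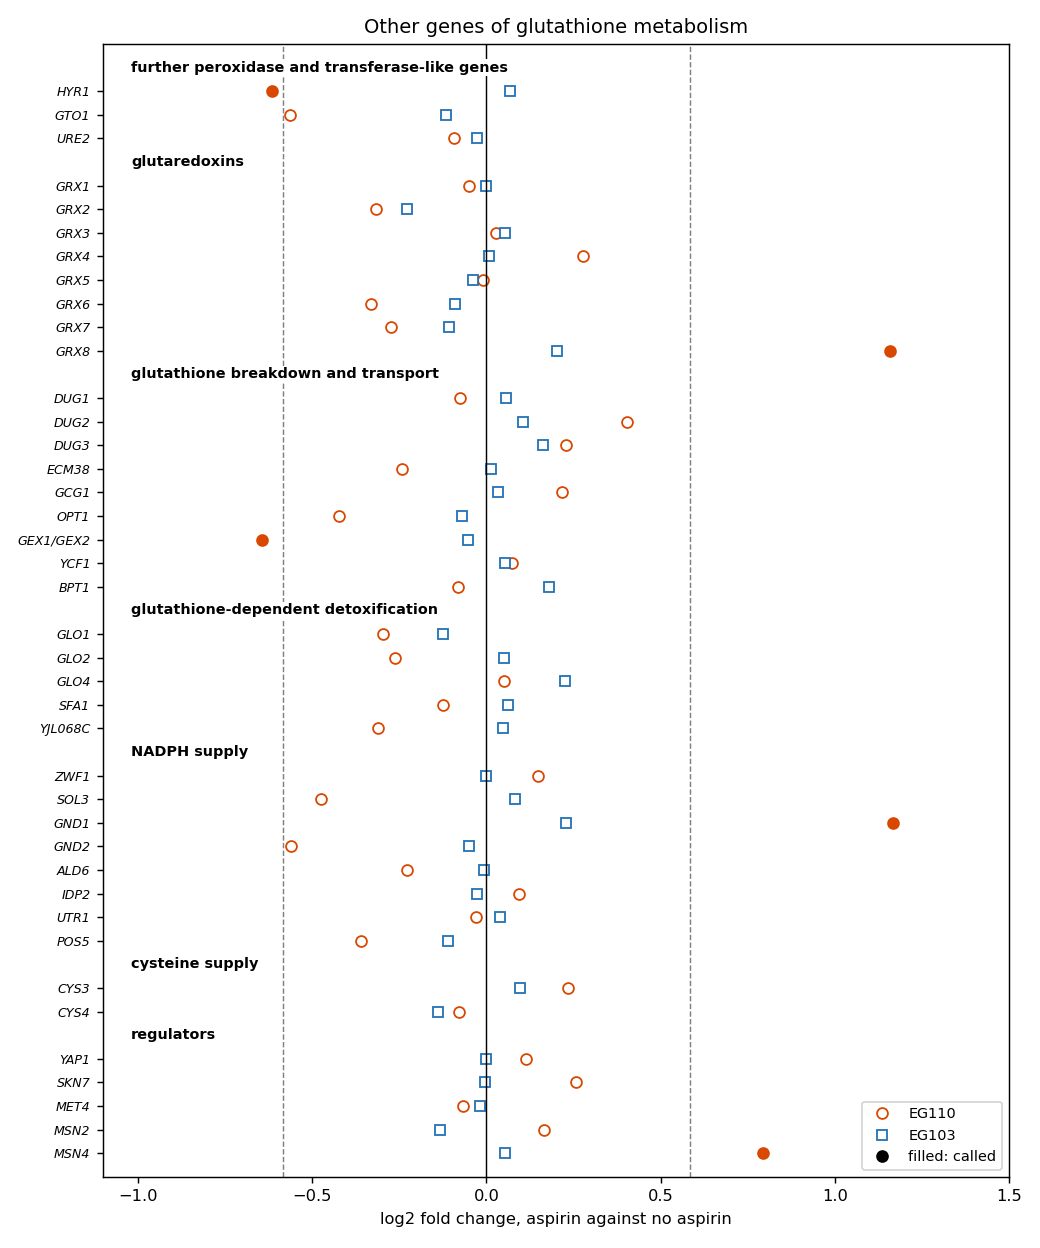
Log2 fold change with aspirin of 40 probe sets of related genes, grouped by role, in EG110 (circles) and EG103 (squares), with filled symbols for calls. Dashed lines mark a 1.5-fold change. The filled symbols all belong to EG110 (*HYR1*, *GRX8*, *GEX1*/*GEX2*, *GND1* and *MSN4*).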

How the data were processed

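The 12 arrays were processed by the authors, who corrected background, normalized arrays and combined probes by the robust multi-array average (RMA) in AltAnalyze 2.0.8.1 and deposited log2 values. Columns with the authors' comparisons of treated and untreated cells (fold changes, P-values) were not used. Whether both strains were normalized together is not given in the sources used here, and the table names no genome build. Of 10928 probe sets, 5716 carry an *S. cerevisiae* gene and were tested, 4999 carry none and 213 are controls. All values were used as deposited, with no filter.

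A linear model of the 4 groups was fitted with limma 3.58.1 in R 4.3.3 (8 residual degrees of freedom) with Benjamini-Hochberg adjustment over all tested probe sets within each of 5 comparisons. Thresholds were those of the study's methods. The scripts were tested on simulated data. The number of arrays limits the precision. Members and lists were chosen with earlier results of these data known. Named were all 9 members, listed genes called in any comparison, and the 3 probe sets most correlated with each member called for aspirin. RefSeq R64 served for names (all 9 members matched) and neighbours only. Promoter and protein sequences were not used here.

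Replicate numbers were checked for pairing by correlating the deviations of same-numbered arrays from their group means. The values for treated and untreated arrays were 0.229, 0.142 and 0.343 in EG110 and 0.0166, 0.485 and 0.450 in EG103. Different-numbered arrays gave -0.387 to 0.221 in EG110 and -0.492 to 0.182 in EG103. The labels do not say what a number shares. The main fit used no pairing, and a fit with replicate number as a block, for both strains, was an alternative. Others were quantile normalization, median centring, a filter on low expression, a variance trend with robust shrinkage, only the arrays compared, the methods' t-test, all probe sets, other fold thresholds and leaving out each array. These alternatives were applied to the other listed genes after their values were seen. Plots were made in Python 3.11.15 (matplotlib 3.10.9).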

Additional observations from a re-analysis of the deposited data

Results flagged for a closer look

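Of the 9 genes, 2 had an aspirin effect that differed between the strains past both thresholds, by the interaction term of limma. The share of all tested probe sets was 11.6%. For *GTT1* the aspirin effect in EG110 minus that in EG103 was -0.98 (limma's adjusted P = 4.09e-05), with log2 fold changes of -0.81 and 0.17, and all 3 treated EG110 arrays lay below the untreated ones. For *GTO3* it was 1.21 (limma's adjusted P = 0.000101), with log2 fold changes of -0.20 in EG110 and -1.41 in EG103, where all 3 treated arrays lay below the untreated ones. Over the alternatives tried, these differences lay between -1.03 and -0.90 for *GTT1* and between 1.12 and 1.35 for *GTO3*.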

How the results depend on the processing

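The calls of *GTT1* in EG110, *GTO3* in EG103 and both in the interaction held under every alternative in which the gene was tested at the 1.5-fold threshold. A filter on the 25% least expressed probe sets removed *GTO3* and *GPX2* themselves, which left 0 calls in EG103 and 1 in the interaction. At a threshold of 2-fold there were 0 calls for aspirin in EG110 by limma (3 genes passed an unadjusted P of 0.05, and 4 by the methods' t-test), 2 between the untreated strains and 1 in the interaction, beside 3.45%, 7.07% and 3.60% of all probe sets. At 2-fold, *GTO3* kept its call in EG103 (2.65-fold, beside 0.472% of all probe sets). Between the treated strains *GPX1* and *GTT2* kept theirs (2.44-fold and 2.19-fold, beside 8.57%). With no fold threshold the counts were 3 in EG110, 2 in EG103 and 8 between the untreated strains (background 52.3%, 20.6% and 72.6%). They were 8 between the treated strains and 4 in the interaction (background 72.6% and 33.1%). Quantile normalization gave 5 calls between the treated strains, where it called 1236 of the 5716 probe sets. Over fits without single arrays, the counts stayed at 1, 1 and 5 for both aspirin effects and the untreated strains, and lay between 2 and 3 for the treated strains and for the interaction. With the replicate number as a block the counts were 1, 1, 5, 3 and 2, and the block changed no call. Small values turned their sign. After quantile normalization, *GTT2* was 0.027 for aspirin in EG110, *GPX2* -0.043 for aspirin in EG103, and *GSH1* and *GSH2* 0.080 and 0.0057 between the untreated strains, where median centring gave 0.14 and 0.0063. Without single arrays, the ranges were -0.083 to 0.053 for *GTT2* in EG110, and in EG103 -0.031 to 0.035 for *GSH2*, -0.019 to 0.068 for *GPX2* and -0.054 to 0.011 for *ECM4*. For *GTT1* between the treated strains the range was -0.0044 to 0.13.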

Other observations

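Genes that supply glutathione metabolism with NADPH and cysteine, and its regulators, were also measured. *GND1* and *GND2* encode the isoenzymes of 6-phosphogluconate dehydrogenase, which makes NADPH in the pentose phosphate pathway, and they differed between the untreated strains in opposite directions. *GND1* had a log2 difference of -1.86 (limma's adjusted P = 1.07e-08, 3.62-fold lower in EG110) and *GND2* of 1.72 (adjusted P = 5.18e-09, 3.30-fold higher). With aspirin in EG110, *GND1* rose from 10.62 ± 0.20 to 11.78 ± 0.04 (each SD, n = 3), with a log2 fold change of 1.17 (limma's adjusted P = 1.16e-06, 2.25-fold), while the value for *GND2* was -0.56 (adjusted P = 7.83e-05, 1.48-fold, under the fold threshold). In EG103 the values were 0.23 (limma's adjusted P = 0.0915) and -0.05 (adjusted P = 0.675). The interaction was 0.94 for *GND1* (limma's adjusted P = 0.000203) and -0.51 for *GND2* (adjusted P = 0.00352, under the fold threshold).

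Of the 8 genes of NADPH supply, 1 was called higher with aspirin in EG110 and 0 lower, beside 5.90% and 6.09% of all probe sets, while 6 passed an adjusted P of 0.05 by limma (background 52.3%). Between the untreated strains 1 of the 8 was called higher in EG110 and 2 lower, beside 7.45% and 17.4% of all probe sets. *SOL3*, which encodes a 6-phosphogluconolactonase, was lower in EG110 than in EG103 without aspirin (-0.61, limma's adjusted P = 1.07e-05) and with it (-1.17, adjusted P = 4.93e-08). Of the 5 regulator genes, 1 was called higher with aspirin in EG110 and 0 lower, beside 5.90% and 6.09% of all probe sets. At an adjusted P of 0.05 by limma alone 2 passed (background 52.3%). *MSN4*, the gene of a transcription factor of the general stress response, rose in EG110 with a log2 fold change of 0.79 (limma's adjusted P = 1.99e-06, 1.73-fold). In EG103 it had 0.05 (limma's adjusted P = 0.602). *SKN7*, the gene of a transcription factor of the oxidative stress response, had 0.26 with aspirin in EG110 (limma's adjusted P = 0.0126), under the fold threshold. It was the 1 regulator gene of 5 called between the untreated strains, beside 24.8% of all probe sets. There *SKN7* was lower in EG110 than in EG103 cells (-0.71, limma's adjusted P = 4.36e-06). So was *CYS3*, 1 of the 2 genes of cysteine supply and the gene of cystathionine gamma-lyase, which makes cysteine (-0.71, limma's adjusted P = 7.12e-05). Relative to the median of all probe sets, the differences between the untreated strains were -0.41 for *SOL3*, -0.51 for *SKN7* and -0.51 for *CYS3*, and after median centring none of the 3 reached the fold threshold. *SOL3* and *CYS3* also fell under it, at -0.57 and -0.58, without untreated EG110 replicate 3. For *GND1* and *GND2* the values relative to the median were -1.66 and 1.92.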
